A study of Mus musculus with 6 samples.

Results

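The replication-dependent histone genes encode the bulk of the core histones that package newly made DNA. They were described here in B16F10, a mouse melanoma line that makes pigment. The cells had spent 48 h in plain medium (control) or in medium holding di-sq, the compound named SQ-diEG in the title of the series, at 2.5 µM or 40 µM. Genes were taken by symbol, as those with the cluster-style names of the histone genes (Hist1 to Hist4 names, or H2ac, H2bc, H3c and H4c followed by a number). This gave 49 of 19505 measured genes, with 13 for H2A, 15 for H2B, 10 for H3, 11 for H4 and 0 for the linker histone H1, whose clustered genes carry H1f symbols in the annotation. Each of the 49 had 1 measured transcript cluster. Each of the 3 groups held 2 arrays of RNA from the same cell line, and the labels name no other difference between the groups. No label says that arrays of 1 group were separate cultures, so p-values measure the spread between these arrays, which may be technical. Sample titles and treatment fields gave the groups, and the free descriptions of 4 treated samples name something else. The measured RNA was pooled over each culture, so fewer cells in S phase and less histone RNA per cell cannot be told apart.

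Replication-dependent histone genes are transcribed in S phase, when a cell that copies its DNA needs histones in equal step. Cyclin E with CDK2 phosphorylates the coactivator NPAT at the histone gene clusters, and the mRNAs end in a conserved stem-loop bound by SLBP in place of the poly(A) tail of other mRNAs. When DNA synthesis stops, these mRNAs are quickly degraded. A typical gene of this kind has no introns and sits in a cluster, where many H2A and H2B genes lie head to head and share a promoter region. Replacement variants such as H3.3 and H2A.Z are made from genes outside the clusters, through the cell cycle, as polyadenylated mRNAs. The submitters' text says that labelled cRNA was made from poly(A) RNA. How well a histone mRNA without a tail is captured by that labelling was not tested.

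The array check gave 8 of 10 melanoma and melanocyte markers at or above 9.94, a log2 level set by the negative control features (the mean over arrays of their 95th percentile), and 0 of 6 fibroblast, 0 of 5 keratinocyte, 0 of 4 leukocyte and 0 of 5 endothelial markers. The arrays numbered 1 at 2.5 µM and at 40 µM had low technical controls. The mean of the hybridisation controls was 10.43 and 10.30 on them and 10.82 to 11.15 on the other 4 arrays, and that of the poly-A controls 5.65 and 5.63 on them and 6.35 to 7.42 on the others, with 40 µM replicate 2 the highest. All 6 poly-A means were under 9.94, and the median of the negative controls was 5.98 to 6.10 on the arrays. The order of the poly-A means thus rests on background-range signal, here and below. The comparisons below are given with and without these 2 low arrays.

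Of the 49 genes, 41 lie on chromosome 13 and 8 on chromosome 3 in RefSeq's GRCm38.p6 annotation. Promoter windows of 250 bases before to 50 after the start, from RefSeq on the same build, matched 44 of the 49 genes. Segments of 3 head-to-head H2A and H2B pairs are shown. They are the pair with the widest gap between its genes on 40 µM replicate 1, the pair of H2bc21, and a pair with both genes below control on that array. The segments run 5′ to 3′ on the minus strand, from the start of the H2B gene to the start of the H2A gene, at chr13:23683960-23684198 (239 bases), chr3:96220881-96221071 (191 bases) and chr13:22042950-22043197 (248 bases). Capitals mark matches on either strand to the TATA box TATAAA, the box CCAAT and the octamer ATTTGCAT known from H2B promoters.
H2bc4 to H2ac6: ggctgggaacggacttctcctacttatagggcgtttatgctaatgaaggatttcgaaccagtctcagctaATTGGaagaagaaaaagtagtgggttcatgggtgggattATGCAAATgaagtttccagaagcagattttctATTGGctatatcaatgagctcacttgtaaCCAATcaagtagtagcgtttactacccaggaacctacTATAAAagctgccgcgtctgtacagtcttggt
H2bc21 to H2ac20: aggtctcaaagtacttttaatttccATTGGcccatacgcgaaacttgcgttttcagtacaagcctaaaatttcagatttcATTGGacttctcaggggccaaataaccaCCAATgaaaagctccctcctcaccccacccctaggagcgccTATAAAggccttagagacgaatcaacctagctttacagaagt
H2bc11 to H2ac11: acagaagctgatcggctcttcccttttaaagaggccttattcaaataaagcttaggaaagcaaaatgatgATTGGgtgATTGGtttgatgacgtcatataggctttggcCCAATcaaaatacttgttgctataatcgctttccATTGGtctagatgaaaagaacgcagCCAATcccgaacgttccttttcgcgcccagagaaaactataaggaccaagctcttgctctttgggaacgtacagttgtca
The 250 bases before the starts of 2 H4 genes, on the plus strand at chr13:23581318-23581567 and chr13:21734784-21735033, are shown because these genes had the lowest and the highest H4 value on that array, as differences from control.
H4c4: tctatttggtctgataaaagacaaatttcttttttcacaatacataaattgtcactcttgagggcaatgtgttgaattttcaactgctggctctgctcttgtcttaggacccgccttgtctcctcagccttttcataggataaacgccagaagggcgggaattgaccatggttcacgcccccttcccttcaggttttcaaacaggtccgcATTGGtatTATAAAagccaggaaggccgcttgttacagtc
H4c11: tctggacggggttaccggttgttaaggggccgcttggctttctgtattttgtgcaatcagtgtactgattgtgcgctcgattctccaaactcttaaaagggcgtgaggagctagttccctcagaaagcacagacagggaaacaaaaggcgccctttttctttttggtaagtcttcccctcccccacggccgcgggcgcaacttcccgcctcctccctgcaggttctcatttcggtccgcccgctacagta
The H4c4 segment held a TATAAA and a CCAAT match, and the H4c11 segment held none of the 3 motifs. The whole H4c11 window, which runs on to 50 bases after the start, held a TATAAA match.

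CCAAT was present in 37 of the 44 windows (84.1%), against 37.4% of all 32817 windows of the same length in the table. By class it was in 13 of 13 H2A, 13 of 13 H2B and 8 of 8 H3 windows, and in 3 of 10 H4 windows. TATAAA was present in 56.8% of the histone windows against 13.6% of all windows. The octamer ATTTGCAT was found in 27.3% against 1.74%, in 6 H2A and 6 H2B windows and in 0 H3 and 0 H4 windows. The windows of a head-to-head pair overlap, so H2A and H2B windows are not independent of each other. Both strands were searched, and a match is a description of these letters only.

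At the level of signal, 42 of the 49 genes had a mean over the 6 arrays at or above 9.94. In all, 4147 genes reached that level, and 78.7% lay below it. The other 7 were H2ac1, H2bc1, H2bc21, H2bc22, H2bc23, H3c1 and H4c9. H2ac1 and H2bc1 are known as testis-type histone genes. Class medians of the mean level were 17.14 for H2A, 13.17 for H2B, 16.73 for H3 and 16.47 for H4. Values of different genes come from different probes and were not ranked against each other. H3c14 and H3c15, neighbouring genes for the same H3 protein, had equal values on every array (within 0.0001) and carry the information of 1 gene. Copies within a class are near-identical in coding sequence, so signal from 1 copy can reach the probes of another.

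**Figure D1:**
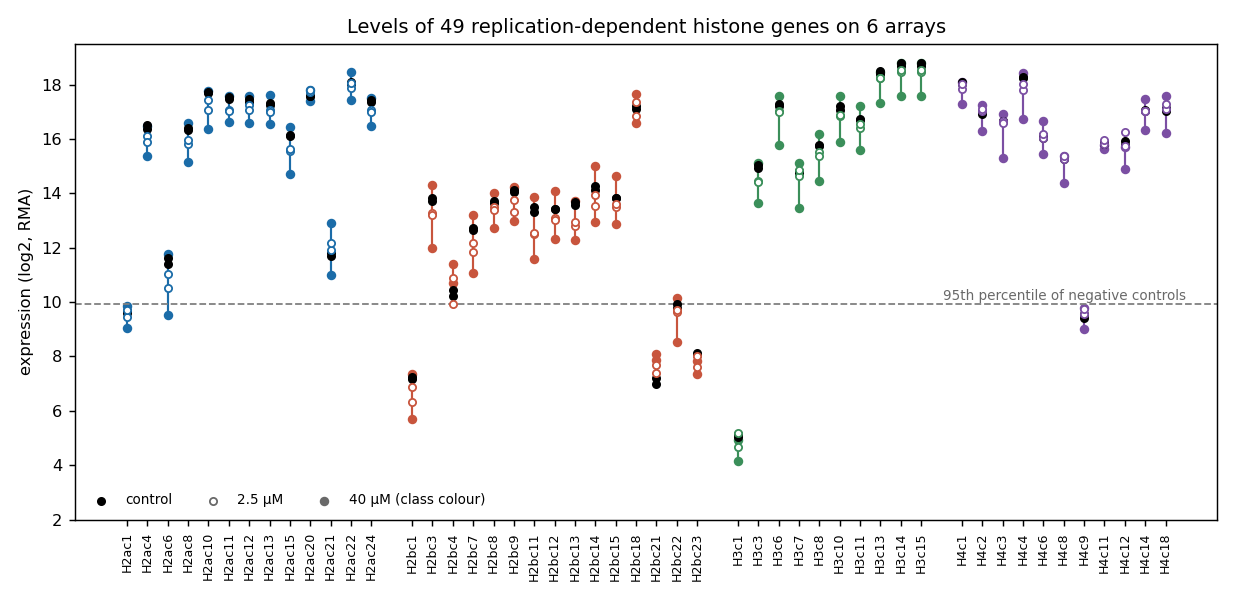
Log2 expression (RMA, vertical axis) of the 49 histone genes (horizontal axis, ordered by number within H2A, H2B, H3 and H4) on 6 arrays. Black points are control arrays, open points 2.5 µM and points in the class colour 40 µM, vertical lines span the 6 values, and the dashed line is the level of 9.94. In 47 of the 49 genes the lowest point is a 40 µM array, replicate 1.

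The 2 arrays at 40 µM gave opposite pictures of the histone genes. On replicate 1, 47 of the 49 genes were below both control arrays, against 47.2% of all genes, with a median difference from the control mean of -1.06 on the log2 scale. On replicate 2, 42 of the 49 were above both controls, against 40.7% of all genes, with a median of 0.27. The 2 arrays at 2.5 µM were alike, with medians of -0.24 and -0.23. Over all genes these 4 medians lay between -0.04 and 0.01, and over the genes at or above 9.94 between -0.01 and 0.08.

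Replicate 1 at 40 µM was the lowest of the 6 arrays in 47 of the 49 genes, against 26.3% of all genes. The exceptions were H2bc4 and H2bc21. Replicate 2 at 40 µM was the highest of the 6 arrays in 41 of the 49, against 17.2% of all genes. Replicate 2 exceeded replicate 1 by a median of 1.25, from -0.71 in H2bc4 to 2.29 in H2bc3, and by over 1 log2 unit in 36 of the 49 genes, against 3.2% of all genes. At 2.5 µM the same gap had a median of 0.08.

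The spread followed. The median SD of a histone gene (n = 2) was 0.06 among the controls, 0.11 among the 2.5 µM arrays and 0.89 among the 40 µM arrays, while that of all genes was 0.09, 0.19 and 0.26. The poly-A controls of the 40 µM arrays were 5.63 and 7.42, the outer values of the 6 arrays, and their part in the histone gap was not tested. Replicate 1 at 2.5 µM had poly-A controls of 5.65 and a histone median of -0.24, and replicate 2 at that dose had 6.79 and -0.23. With the arrays rescaled by quantile normalization, every class median on every treated array kept its sign, and the medians over the 49 genes on the 40 µM arrays were -1.16 and 0.19.

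**Figure D2:**
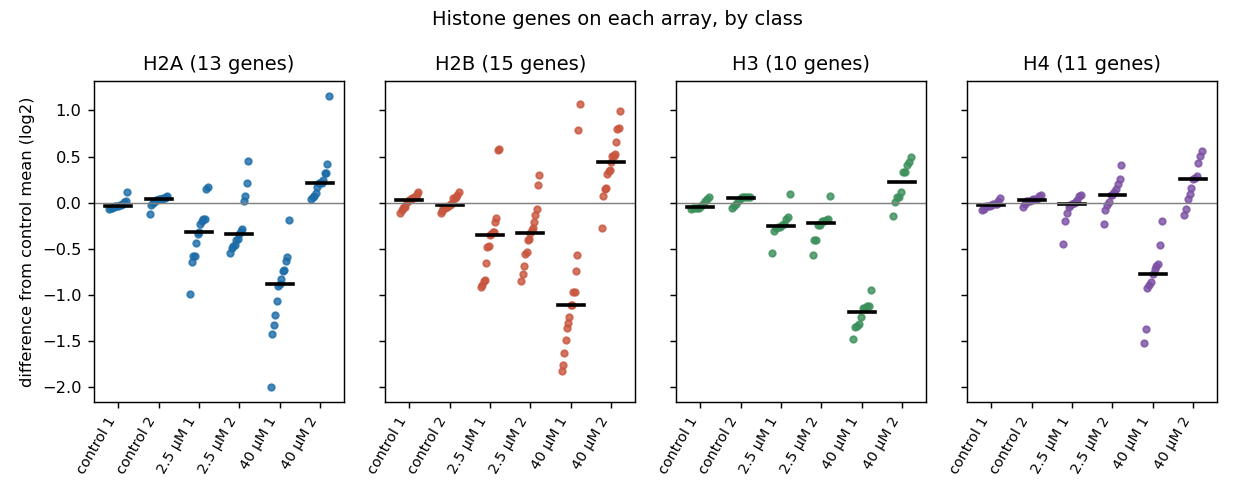
Difference of each histone gene from its control mean (log2, vertical axis) on each of the 6 arrays (horizontal axis), with 1 panel for each class. Points are genes and bars are class medians, which lie between -1.19 and -0.77 on 40 µM replicate 1 and between 0.22 and 0.45 on replicate 2.

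Among the 13 genes of H2A, which pairs with H2B in the nucleosome, the class medians against control were -0.32 and -0.34 at 2.5 µM and -0.88 and 0.22 at 40 µM. H2ac6 had the lowest H2A difference on 40 µM replicate 1, at -2.01. Its log2 values, with replicate 1 before replicate 2 here and for all genes, were 11.64 and 11.40 on the control arrays, 10.53 and 11.05 on those at 2.5 µM, and 9.52 and 11.77 on those at 40 µM. The 2.5 µM arrays lay below both controls, and the 40 µM arrays lay on either side of them. H2ac21 had the highest H2A difference on 40 µM replicate 2, at 1.16, and its values were 11.69 and 11.80 on the control arrays, 11.91 and 12.19 on those at 2.5 µM, and 11.00 and 12.90 on those at 40 µM. Both 2.5 µM arrays were above the controls, and the 40 µM arrays were the lowest and the highest of the 6. H2ac20 read 17.60 and 17.59 on the control arrays, 17.73 and 17.80 on those at 2.5 µM, and 17.40 and 17.81 on those at 40 µM. Of the H2A genes it lay closest to control on 40 µM replicate 1, at -0.19, and both 2.5 µM arrays were above the controls.

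The H2ac11 values were 17.48 and 17.53 on the control arrays, 17.07 and 17.05 on those at 2.5 µM, and 16.62 and 17.58 on those at 40 µM. Both 2.5 µM arrays were under the controls, replicate 1 at 40 µM was lower still, and replicate 2 was slightly above the controls. H2ac10, for which the gene-level difference on 40 µM replicate 2 was the smallest of the class at 0.04, read 17.70 and 17.73 on the control arrays, 17.08 and 17.43 on those at 2.5 µM, and 16.39 and 17.75 on those at 40 µM. It was low on both 2.5 µM arrays and on 40 µM replicate 1. H2ac22 read 18.02 and 18.11 on the control arrays, 17.89 and 18.08 on those at 2.5 µM, and 17.43 and 18.48 on those at 40 µM, and its 40 µM arrays were the outer values. On 40 µM replicate 1 the differences of H2ac4, H2ac8, H2ac12, H2ac13, H2ac15 and H2ac24 were -1.06, -1.22, -0.83, -0.73, -1.42 and -0.91 in that order. On replicate 2 they were 0.06, 0.22, 0.17, 0.32, 0.32 and 0.10. In these 6 genes both 2.5 µM arrays also lay below both controls. H2ac1, under the background level, read 9.60 and 9.68 on the control arrays, 9.44 and 9.71 on those at 2.5 µM, and 9.05 and 9.86 on those at 40 µM, again with the 40 µM arrays as the outer values.

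The 15 genes of H2B, the partner of H2A, had medians of -0.35 and -0.33 at 2.5 µM and -1.11 and 0.45 at 40 µM. H2bc11 had the lowest H2B difference on 40 µM replicate 1, at -1.83, with values of 13.49 and 13.32 on the control arrays, 12.49 and 12.56 on those at 2.5 µM, and 11.58 and 13.85 on those at 40 µM. Both 2.5 µM arrays were below the controls, and the 40 µM arrays were the lowest and the highest of the 6. H2bc3 had the widest gap between the 40 µM arrays of all 49 genes, with 13.84 and 13.71 on the control arrays, 13.29 and 13.22 on those at 2.5 µM, and 12.01 and 14.30 on those at 40 µM. H2bc14 read 14.14 and 14.26 on the control arrays, 13.55 and 13.93 on those at 2.5 µM, and 12.96 and 15.01 on those at 40 µM. Its 2.5 µM arrays were under the controls, while its 40 µM arrays again enclosed all the others. H2bc13 read 13.70 and 13.58 on the control arrays, 12.80 and 12.96 on those at 2.5 µM, and 12.28 and 13.71 on those at 40 µM, with both 2.5 µM arrays low and 40 µM replicate 2 at the level of the controls.

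H2bc4 and H2bc21 were the only histone genes above both controls on both 40 µM arrays. H2bc4 read 10.22 and 10.45 on the control arrays, 10.90 and 9.93 on those at 2.5 µM, and 11.41 and 10.69 on those at 40 µM. Its 2.5 µM arrays lay on either side of the controls, and replicate 1 was the higher array at both doses. H2bc21 read 7.22 and 6.99 on the control arrays, 7.69 and 7.40 on those at 2.5 µM, and 7.89 and 8.10 on those at 40 µM. Each treated array was above both controls, and all 6 values were under the negative control level of 9.94, so this order rests on background-range signal. Both genes are among the 4 of the 49 with a RefSeq gene model over 2000 bases, with H2bc4 at 8282, H2bc21 at 2667, H2bc22 at 14079 and H2bc23 at 3788 bases. The models of the other 45 span 375 to 911 bases. All 45 genes with short models were lowest of the 6 arrays on 40 µM replicate 1, the highest difference being -0.19. The 4 with long models had a median of 0.02 there, with 2 above and 2 below both controls, and 3 of the 4 lie under the background level. The length limit was chosen after the values were seen, and which transcript the probes of the 4 genes read was not tested. H2bc23, also under that level, read 8.05 and 8.14 on the control arrays, 7.63 and 8.03 on those at 2.5 µM, and 7.35 and 7.82 on those at 40 µM, with the 40 µM arrays below both controls. 

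The H2bc9 values were 14.12 and 14.04 on the control arrays, 13.76 and 13.31 on those at 2.5 µM, and 12.97 and 14.23 on those at 40 µM. Its 2.5 µM arrays were both under the controls. H2bc18 read 17.21 and 17.12 on the control arrays, 16.85 and 17.35 on those at 2.5 µM, and 16.59 and 17.66 on those at 40 µM, with the 2.5 µM arrays on either side of the controls. The differences on 40 µM replicate 1 of H2bc7, H2bc8, H2bc12 and H2bc15 were -1.63, -0.97, -1.11 and -0.97 in that order. On replicate 2 they were 0.51, 0.35, 0.65 and 0.80. In these 4 genes the 2.5 µM arrays were below both controls and the 40 µM arrays enclosed all others. H2bc1 and H2bc22, both under the background level, differed by -1.50 and -1.31 on 40 µM replicate 1 and by 0.16 and 0.31 on replicate 2.

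Among the 49 genes, 8 H2A and H2B pairs were head to head with the H2B start within the 250 bases before the H2A start. H2ac1 and H2bc1 are also head to head but lie farther apart, and are not counted among the 8. They were at -0.59 and -1.50 on 40 µM replicate 1 and at 0.215 and 0.16 on replicate 2, both under the background level. On 40 µM replicate 1 both genes of a pair lay on the same side of control in 6 of the 8 pairs, and on replicate 2 in 8 of 8. Most of the 49 genes shared a side, with 47 below both controls on replicate 1 and 42 above both on replicate 2. The counts of pairs thus say little about head-to-head genes as such. The exceptions on replicate 1 were the pairs of H2bc4 and H2bc21. H2ac6 was at -2.01 and H2bc4 at 1.07 there, a gap of 3.08 on the log2 scale across the segment of 239 bases shown above. On 2.5 µM replicate 1 they were at -0.99 and 0.57, and on the other treated arrays the gap was 0.07 at 2.5 µM and 0.11 at 40 µM. The wide gap was thus on the 2 arrays with low poly-A controls. H2ac20 and H2bc21 were at -0.19 and 0.79 on 40 µM replicate 1 and at 0.22 and 1.00 on replicate 2. H2ac11 and H2bc11, whose segment held 5 CCAAT matches, were at -0.88 and -1.83 and then at 0.07 and 0.45, with H2bc11 the farther from control on both arrays. These pairs were picked after their values were seen, and no test was made of their gaps.

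**Figure D3:**
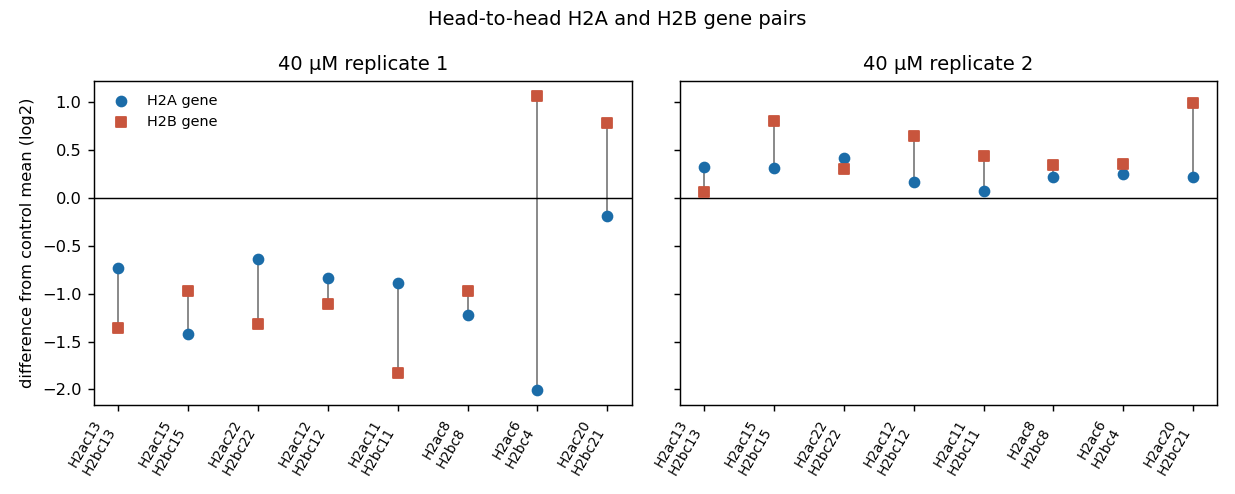
Difference from the control mean (log2, vertical axis) of the 2 genes of each of the 8 head-to-head pairs (horizontal axis) on the 2 arrays at 40 µM, 1 array in each panel. Circles are H2A genes, squares H2B genes and lines join a pair. The gap is widest in H2ac6 and H2bc4 on replicate 1 (-2.01 and 1.07).

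The 10 genes of H3, which forms the core of the nucleosome with H4, had medians of -0.25 and -0.22 at 2.5 µM and -1.19 and 0.22 at 40 µM. H3c14 and H3c15 both read 18.68 and 18.80 on the control arrays, 18.47 and 18.54 on those at 2.5 µM, and 17.60 and 18.80 on those at 40 µM. Both 2.5 µM arrays were under the controls, and replicate 2 at 40 µM was level with the higher control. H3c13 read 18.38 and 18.50 on the control arrays, 18.26 and 18.25 on those at 2.5 µM, and 17.32 and 18.45 on those at 40 µM, with replicate 2 at 40 µM between the controls. H3c6 had the lowest H3 difference on 40 µM replicate 1, at -1.48, and read 17.30 and 17.22 on the control arrays, 17.02 and 17.01 on those at 2.5 µM, and 15.78 and 17.60 on those at 40 µM. Its 2.5 µM arrays were close to each other and below both controls, and the 40 µM arrays were the outer values. H3c11 had the highest H3 difference on 40 µM replicate 2, at 0.50, and read 16.74 and 16.70 on the control arrays, 16.41 and 16.54 on those at 2.5 µM, and 15.59 and 17.22 on those at 40 µM. Its 40 µM arrays enclosed all the others.

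The differences of H3c3, H3c7, H3c8 and H3c10 on 40 µM replicate 1 were -1.34, -1.35, -1.32 and -1.24 in that order. On replicate 2 they were 0.11, 0.33, 0.41 and 0.44. The H3 genes at or above the background level thus lay between -1.48 and -1.13 on replicate 1. H3c1 was under the background level and read 5.03 and 5.15 on the control arrays, 5.18 and 4.68 on those at 2.5 µM, and 4.14 and 4.94 on those at 40 µM, with both 40 µM arrays below both controls. H3c7 and H3c1 were the H3 genes whose 2.5 µM arrays did not both lie below the controls.

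The 11 genes of H4, which encode the same protein, had medians of -0.02 and 0.09 at 2.5 µM and -0.77 and 0.26 at 40 µM. H4c4 had the lowest H4 difference on 40 µM replicate 1, at -1.52, and read 18.25 and 18.28 on the control arrays, 17.82 and 18.03 on those at 2.5 µM, and 16.74 and 18.42 on those at 40 µM. Both 2.5 µM arrays were below the controls, and the 40 µM arrays were the outer values. H4c11 lay closest to control on that array, at -0.20, and read 15.82 and 15.88 on the control arrays, 15.84 and 15.96 on those at 2.5 µM, and 15.65 and 15.78 on those at 40 µM. Its 6 values spanned a narrow range, with the 40 µM arrays below both controls.

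H4c12 read 15.77 and 15.93 on the control arrays, 15.74 and 16.26 on those at 2.5 µM, and 14.92 and 15.71 on those at 40 µM. Both 40 µM arrays were below both controls, and the 2.5 µM arrays lay on either side of them. H4c6 had the highest H4 difference on 40 µM replicate 2, at 0.56, and read 16.15 and 16.05 on the control arrays, 16.06 and 16.18 on those at 2.5 µM, and 15.44 and 16.66 on those at 40 µM, with the 40 µM arrays as the outer values. H4c8 read 15.27 and 15.30 on the control arrays, 15.26 and 15.37 on those at 2.5 µM, and 14.38 and 15.38 on those at 40 µM, with only 40 µM replicate 1 away from the rest. The differences of H4c1, H4c2, H4c3, H4c14 and H4c18 on 40 µM replicate 1 were -0.77, -0.69, -1.37, -0.72 and -0.87 in that order. On replicate 2 they were 0.04, 0.27, 0.26, 0.43 and 0.51. H4c9, under the background level, read 9.42 and 9.56 on the control arrays, 9.57 and 9.75 on those at 2.5 µM, and 9.03 and 9.78 on those at 40 µM, and its 2.5 µM arrays were above both controls.

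The 5 linker H1 genes of the chromosome 13 cluster, which bind the DNA between nucleosomes, were not taken by the naming rule and are given beside it. H1f3, the only 1 at or above the background level, read 14.24 and 14.15 on the control arrays, 13.99 and 14.20 on those at 2.5 µM, and 13.55 and 14.58 on those at 40 µM. Its 40 µM arrays were the lowest and the highest of the 6. On 40 µM replicate 1 the differences of H1f1, H1f2, H1f5 and H1f6 were -1.06, 0.84, -1.12 and -1.04 in that order, and on replicate 2 -0.37, 0.17, -0.02 and 0.52. H1f1 and H1f5 thus lay below the control mean on both arrays. H1f1, under the background level, had a lower group mean at 40 µM than in control (log2 difference -0.72, SE 0.29, limma adjusted p = 0.408).

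The comparison of 40 µM with control asked how the high dose changed these genes. The group means of 45 of the 49 genes were lower at 40 µM and those of 4 were higher, with a median difference of -0.41, a mean of 2 arrays that point in opposite directions. In limma's moderated test over all genes with Benjamini-Hochberg adjustment, 0 of the 49 passed an adjusted p of 0.05, as did 0% of all genes, and the smallest adjusted p was 0.349. At an unadjusted p under 0.05, 1 gene was higher (5.18% of all genes) and 0 were lower (6.86% of all genes). The 40 µM arrays lay above both controls in H2bc4 and H2bc21, 2 of the 49 against 22.2% of all genes. They lay below both in H2bc23, H3c1, H4c11 and H4c12, 4 of the 49 against 26.3%.

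H2bc21 had the smallest p, with means of 7.10 ± 0.16 in control and 7.99 ± 0.15 at 40 µM (SD, n = 2 each). The difference was 0.89 (SE 0.23), with an adjusted p of 0.349 in limma, and no fold is given because both groups are under the background level. H2bc4 was at 10.34 ± 0.16 and 11.05 ± 0.50, and H2ac21 at 11.74 ± 0.08 and 11.95 ± 1.35 (SD, n = 2 each). Their differences were 0.71 (SE 0.37, limma adjusted p = 0.462) and 0.21 (SE 0.54, limma adjusted p = 0.886). Of the genes with lower means, H2bc23, H4c12 and H3c1 had the smallest p. Their differences were -0.51 (SE 0.26), -0.54 (SE 0.29) and -0.55 (SE 0.32), with limma adjusted p of 0.453, 0.481 and 0.507. Of these, H2bc23 and H3c1 are under the background level.

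The call depended on which 40 µM array was kept. Without replicate 2, 40 of the 49 genes passed as lower, against 3.99% of all genes, and the median was -1.06. Without replicate 1, 0 passed in limma (21 higher at an unadjusted p under 0.05, against 6.47% of all genes), the median was 0.27 and 41 of the 49 genes changed the sign of their difference. Without both arrays with low controls, which leaves 1 array at each dose, the median was 0.27 and 41 signs changed. As a block in place of being left out, the low arrays share 1 term over both doses. The median was then -0.08 and 15 signs changed. In the fits with arrays left out, a lone array is assumed to vary as the replicated groups do. Without both low arrays the controls are the only replicated group, with a median SD of 0.06 against 0.89 at 40 µM.

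The comparison of 2.5 µM with control asked for an effect of the low dose. Here the 2 treated arrays were alike, and 30 of the 49 genes had both below both controls, against 25.9% of all genes. These were 9 of 13 H2A, 12 of 15 H2B, 8 of 10 H3 and 1 of 11 H4 genes, the last being H4c4. Both 2.5 µM arrays were above both controls in H2ac20, H2ac21, H2bc21, H4c2 and H4c9, 5 of the 49 against 27.1%. The group means were lower in 38 genes and higher in 11, with a median of -0.24. With the low arrays as a block the median was 0.10, with 31 genes higher and 18 lower. That block is 1 term for both doses, though the median gap between replicates was 0.08 at 2.5 µM and 1.25 at 40 µM. Each 2.5 µM array on its own had a negative median, -0.24 and -0.23. In limma 0 of the 49 passed, as did 0% of all genes (smallest adjusted p 0.57), and at an unadjusted p under 0.05 there were 0 higher (4.24% of all genes) and 0 lower (5.38% of all genes).

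That fit takes 1 spread from all groups, including the wide one at 40 µM. With only the control and 2.5 µM arrays fitted, 26 of the 49 genes were lower at an unadjusted p under 0.05 in limma, against 9.18% of all genes, and 0 passed the adjusted threshold (smallest adjusted p 0.141). Without both low arrays, which leaves 1 array at 2.5 µM, 27 passed as lower (9.88% of all genes) and 5 as higher (10.6%).

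Of the genes with lower means, H2bc13 was at 13.64 ± 0.08 in control and 12.88 ± 0.11 at 2.5 µM (SD, n = 2 each), a difference of -0.77 (SE 0.42, limma adjusted p = 0.582). H2ac11 was at 17.51 ± 0.03 and 17.06 ± 0.02, and H2bc9 at 14.08 ± 0.06 and 13.53 ± 0.32 (SD, n = 2 each). Their differences were -0.45 (SE 0.29) and -0.55 (SE 0.39), with limma adjusted p of 0.635 and 0.667. Of the genes with higher means, H2bc21, H2ac20 and H4c9 had the smallest p. Their differences were 0.44 (SE 0.23), 0.18 (SE 0.17) and 0.17 (SE 0.28), with limma adjusted p of 0.57, 0.761 and 0.862.

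The comparison of the 2 doses asked whether 40 µM differed from 2.5 µM. Group means were lower at 40 µM in 37 genes and higher in 12, with a median of -0.10. Between the arrays numbered 1 the median difference was -0.77, with 2 of 49 genes higher at 40 µM, and between those numbered 2 it was 0.50, with 46 of 49 higher. In limma 0 of the 49 passed, as did 0% of all genes (smallest adjusted p 0.854), and at an unadjusted p under 0.05 there were 0 higher (2.34%) and 0 lower (3.28%). The groups did not overlap in H2bc21, 1 of the 49 and higher at 40 µM (12.4% of all genes), nor in H4c11 and H4c12, 2 of the 49 and lower (16.3%).

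The smallest p-values in each direction belonged to H2bc21, H2bc4 and H2bc14 and to H4c12, H4c8 and H3c1. The first set had differences of 0.45 (SE 0.23), 0.63 (SE 0.37) and 0.25 (SE 0.57), with limma adjusted p of 0.854, 0.859 and 0.967. The second set had -0.69 (SE 0.29), -0.43 (SE 0.30) and -0.39 (SE 0.32), with limma adjusted p of 0.854, 0.874 and 0.889. Without both low arrays, 35 of the 49 genes passed as higher at 40 µM (7.04% of all genes) and 1 as lower (8.16%), and 34 genes changed sign. The comparisons with control share the control arrays, and those of the doses share the treated arrays, so they are not independent of each other.

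The replication-independent histones and variants, of which 16 of 18 listed were measured, had medians of 0.21 and 0.07 at 2.5 µM and 0.02 and 0.07 at 40 µM. Replicate 1 at 40 µM was the lowest of the 6 arrays in 3 of the 16, against 26.3% of all genes. H2az1, for the variant H2A.Z, read 13.13 and 13.23 on the control arrays, 14.55 and 13.54 on those at 2.5 µM, and 14.99 and 13.46 on those at 40 µM. It was high on replicate 1 at both doses, the arrays with low poly-A controls. H3f3b and H3f3a, for H3.3, differed from control by 1.60 and 1.35 on 40 µM replicate 1, by 0.93 and 0.96 on 2.5 µM replicate 1, and by 0.07 and 0.02 on 40 µM replicate 2. These 3 genes were above control on the array on which 47 of the 49 clustered genes were below it.

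H2ax, for the variant H2A.X, which is phosphorylated at broken DNA, read 15.55 and 15.62 on the control arrays, 15.80 and 15.67 on those at 2.5 µM, and 14.82 and 15.81 on those at 40 µM. It was below the controls on 40 µM replicate 1 alone, at -0.77. Cenpa, for the centromeric H3, was at 0.98 and -0.30 on the 40 µM arrays. In limma 0 of the 16 variants passed at 40 µM against control (0 higher and 0 lower at an unadjusted p under 0.05, against 5.18% and 6.86% of all genes). H2az1 had a difference of 1.04 (SE 0.51, limma adjusted p = 0.447), and H1f7 and H2ab1, both under the background level, 0.51 (SE 0.25) and -0.52 (SE 0.29). Without both low arrays, which leaves 1 array at 40 µM, H2az1 was at 0.28 and H2ax at 0.22. At 2.5 µM the smallest p-values were those of H1f10, under the background level, at -0.53 (SE 0.19, limma adjusted p = 0.492), and Macroh2a1, at 0.44 (SE 0.25, limma adjusted p = 0.6).

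**Figure D4:**
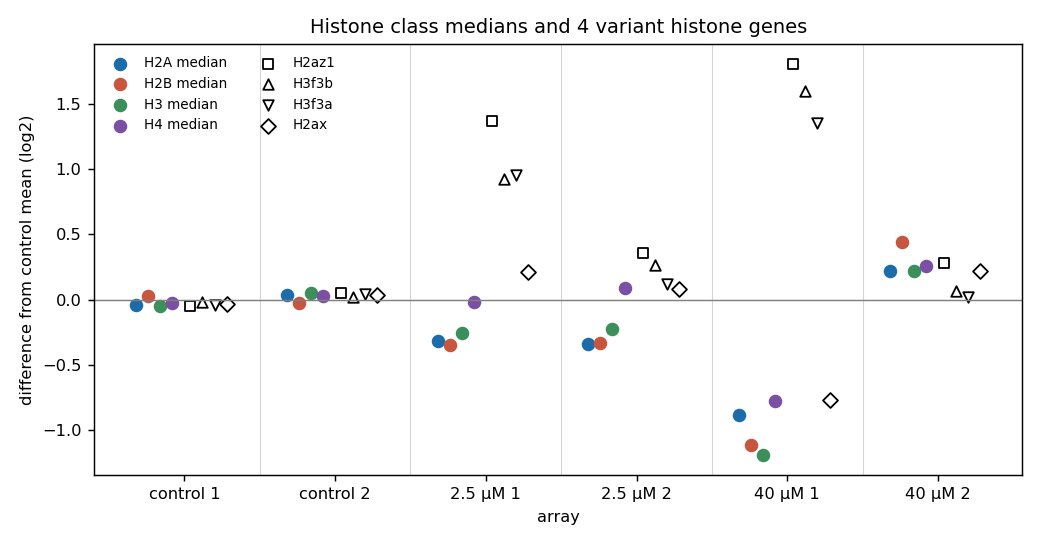
Difference from the control mean (log2, vertical axis) on each of the 6 arrays (horizontal axis). Filled circles are medians of the 4 clustered histone classes, and open symbols are the variant genes H2az1, H3f3b, H3f3a and H2ax. On 40 µM replicate 1 H2az1 is at 1.81 and H2ax at -0.77, while the class medians lie between -1.19 and -0.77.

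Of the factors that transcribe histone genes and process their mRNA, 22 of 24 listed were measured, with medians of 0.07 and -0.11 at 2.5 µM and 0.13 and -0.18 at 40 µM. Slbp, for the stem-loop binding protein, read 10.07 and 10.19 on the control arrays, 9.93 and 9.29 on those at 2.5 µM, and 10.30 and 8.99 on those at 40 µM. It was highest on 40 µM replicate 1 and lowest on replicate 2, the reverse of the order of the histone genes on these arrays. Its mean of 9.80 is just under the background level. Without both low arrays, which leaves 1 array at each dose, Slbp differed from control by -1.14 at 40 µM and by -0.85 at 2.5 µM. Npat read 12.44 and 12.47 on the control arrays, 12.11 and 12.38 on those at 2.5 µM, and 11.80 and 12.36 on those at 40 µM, with each treated array below both controls. Casp8ap2, for a factor of the histone locus body, was at -0.81 and -0.17 on the 40 µM arrays, and E2f1, for a driver of S-phase entry, at -0.88 and -0.18.

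Cdk2 was at 0.10 and -0.44 on the 40 µM arrays, and its partner Ccne1 at 0.23 and 0.38. Ccne1 and E2f1 have means just under the background level. In limma 0 of the 22 passed in any of the 3 comparisons, and at 40 µM against control 1 was higher and 2 were lower at an unadjusted p under 0.05 (5.18% and 6.86% of all genes). The higher gene was Lsm1, for a protein of mRNA decapping and under the background level, with 0.67 (SE 0.27, adjusted p = 0.408). Ccne2, for cyclin E2 and also under that level, and Sympk, for a scaffold of the 3′ end cleavage complex, were lower, with -0.64 (SE 0.23, adjusted p = 0.382) and -0.54 (SE 0.20, adjusted p = 0.384). Without both low arrays, which leaves 1 array at 40 µM, Ccne2 was at -0.88, Sympk at -0.31 and Lsm1 at 0.36. At 2.5 µM Eri1, for an exonuclease that trims histone mRNA ends, read 9.87 and 9.72 on the control arrays, 10.69 and 10.82 on those at 2.5 µM, and 11.08 and 9.89 on those at 40 µM, with a limma difference of 0.96 (SE 0.37, adjusted p = 0.506). It was high on both 2.5 µM arrays and on 40 µM replicate 1. E2f4, under the background level, differed by -0.39 at 2.5 µM (SE 0.21, limma adjusted p = 0.575).

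Of the histone chaperones and deposition factors, which carry histones to DNA, 22 of 23 were measured and 0 passed in limma. At 40 µM 1 was higher (5.18% of all genes) and 3 were lower (6.86%) at an unadjusted p under 0.05. Ipo4, for an import factor of H3 and H4, was 1.54 higher (SE 0.52, limma adjusted p = 0.365) at levels under the background. Hira, for the H3.3 chaperone, read 11.40 and 11.44 on the control arrays, 11.08 and 10.88 on those at 2.5 µM, and 10.54 and 11.05 on those at 40 µM, with each treated array below both controls, and differed by -0.63 (SE 0.23, limma adjusted p = 0.378). Set, for a chaperone and phosphatase inhibitor, differed by -0.53 (SE 0.20, limma adjusted p = 0.388). With both low arrays left out, which leaves 1 array at 40 µM, Ipo4 was at 0.75, Hira at -0.37 and Set at -0.27.

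Of the S-phase genes of DNA synthesis and its control, 26 of 28 listed were measured, with medians of 0.18 and -0.03 at 2.5 µM and 0.07 and -0.28 at 40 µM. On 40 µM replicate 2, 21 of the 26 were below both controls (43.1% of all genes), on the array on which 42 of the 49 histone genes were above. In limma 0 passed at 40 µM against control, with 1 higher (5.18% of all genes) and 4 lower (6.86%) at an unadjusted p under 0.05. When both low arrays were left out, 2 of the 26 passed as higher (9.15% of all genes) and 11 as lower (10.1%). Uhrf1, for a factor of DNA methylation upkeep, read 11.18 and 11.16 on the control arrays, 11.18 and 11.00 on those at 2.5 µM, and 10.58 and 10.55 on those at 40 µM, with both 40 µM arrays below the other 4 (difference -0.61, SE 0.18, limma adjusted p = 0.349). Tyms, for thymidylate synthase, read 10.14 and 10.62 on the control arrays, 11.21 and 10.72 on those at 2.5 µM, and 11.14 and 11.13 on those at 40 µM, with both 40 µM arrays above both controls (0.75, SE 0.25, limma adjusted p = 0.365). Mcm2, for a subunit of the replicative helicase that also binds histones, differed by -0.40 (SE 0.17, limma adjusted p = 0.413). Ccne2 is on this list as well as on that of the factors. At 2.5 µM the smallest p-values were those of Fen1, at 0.91 (SE 0.28, limma adjusted p = 0.479), and Tk1, at -0.62 (SE 0.23, limma adjusted p = 0.505), both under the background level.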

How the data were processed

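RNA of 6 samples was measured on single-colour Affymetrix arrays. The deposited values are log2 expression values that the authors made with RMA, in Affymetrix Expression Console, per the submitters' processing notes, which give no versions. RMA normalises signal between arrays. The interquartile range of the deposited gene values was still 5.20 and 5.43 on the low arrays, replicate 1 at 2.5 µM and at 40 µM. On the other arrays it was 4.90 to 4.94. Of filters, batches and genome build nothing is given in the sources used here. Values reach 19.71 to 19.88 on the arrays, so the scale holds a step not given there, and folds are on the deposited scale. The protocols speak of 3′ expression arrays, while the features are transcript clusters.

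Of 22206 clusters, 19572 had 1 gene symbol in the platform annotation, and 55 genes with several clusters kept the one with the highest mean, leaving 19505 genes. limma 3.58.1 (R 4.3.3) was fitted to all 6 arrays as group means, with a variance prior following the level (3 residual degrees of freedom, prior 4.11), two-sided, and p-values were adjusted over all genes (Benjamini-Hochberg). The fit was tested on simulated data with known changes. The number of arrays limits the precision.

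Genes named are those at or above the level of the negative controls, the 3 with the smallest p in each direction of a comparison, the outer members of each class at 40 µM, and, in each other list, those with the smallest p and a few regulators. The remaining members under the level were named to account for all 49. Members and lists were chosen with earlier results of these data known. Alternatives covered scaling, weights, filters, blocks and left-out arrays. Equal replicate numbers are not said to mark a shared culture, so equally numbered arrays were not taken as pairs. Deviations of equally numbered arrays correlated by 0.00 between control and 2.5 µM and by -0.01 between control and 40 µM. Between the 2 doses they correlated by 0.39, and what these treated arrays share was not tested.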

Additional observations from a re-analysis of the deposited data

How the results depend on the processing

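With the replicate number as a block, 0 of the 49 histone genes passed in each of the 3 comparisons, as without it. Quantile normalization, array weights, a variance prior without trend, genes above the negative controls only, the mean of clusters and a fit of 2 groups also gave 0 called in each comparison. With the split of low and other arrays as a block the counts were 0 too. The median for 2.5 µM against control moved from -0.24 to 0.10, and that for 40 µM against control from -0.41 to -0.08. This block is 1 term for both doses, and each 2.5 µM array on its own had a negative median (-0.24 and -0.23).

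Leaving out both low arrays leaves 1 array at each dose, so the counts called rest on the spread of the controls alone. For 40 µM against control 25 genes were called, 25 higher and 0 lower (9.15% and 10.1% of all genes), with a median of 0.27. For 2.5 µM against control 32 were called, 5 higher and 27 lower (10.6% and 9.88% of all genes). For 40 µM against 2.5 µM 36 were called, 35 higher and 1 lower (7.04% and 8.16% of all genes). Leaving out 1 array gave 0 to 40 genes called for 40 µM against control, with medians of -1.06 to 0.27. The 40 were all lower, without 40 µM replicate 2, against 3.99% of all genes. For 40 µM against 2.5 µM, leaving out 1 array gave medians of -0.78 to 0.50.

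Without 40 µM replicate 1, as without both low arrays, 41 of the 49 genes changed sign for 40 µM against control and 34 for 40 µM against 2.5 µM. Of the genes whose differences are printed, signs turned without 40 µM replicate 2 in H2ac21 against control (-0.74 to 1.16 when 1 array was left out) and in H2bc14 against 2.5 µM (-0.78 to 1.27). Against 2.5 µM they turned in H3c1 (0.26) and H4c8 (0.01) without both low arrays, and without 40 µM replicate 1 in H3c1 (-0.79 to 0.013 over the left-out arrays) and H4c8 (-0.93 to 0.065). The cause was not tested. Counting H3c14 and H3c15 once or adding the linker H1 genes, both chosen after seeing the data, moved no median by more than its spread. With 2 arrays per group, of which those at 40 µM differ by a median of 1.25 in these genes, a dose effect on them cannot be sized here, and 7 of the 49 genes lie within the range of the negative controls.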
